A study of Tachysurus fulvidraco x Tachysurus vachelli with 6 samples.

Results

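Insulin-like growth factor-binding proteins (IGFBPs) are described here in the gill of hybrid yellow catfish after transport. The 10 genes were the rows whose deposited product name opened with the name of this protein family, without the acid labile subunit of the complex and without the mRNA-binding proteins of similar name. Of the 25792 genes in the table, 11 had such a name, and the 10 with the highest mean level over the 6 libraries were kept. That choice used each gene's mean over both groups and not the difference between them, except for igfbp6, which was included by name with its lower level after transport already known. The gene igfbp6 is therefore described without a test. At the edge of the choice, LOC113641834 had a mean of 0.118 FPKM and was kept, and LOC113662304 had a mean of 0.0233 FPKM and was not. FPKM is the authors' deposited level per gene, a number of sequenced fragments scaled to transcript length and library size.

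RNA was sequenced from the second left gill of juvenile hybrids, bred from Tachysurus fulvidraco females and P. vachellii males. There were 3 libraries from fish transported for 16 h and 3 libraries from untreated control fish. All fish were of the same cross, with no genetic manipulation named, and the labels do not say whether a library held 1 fish or several. Variation between libraries, against which all p-values are set, includes technical variation and may then not measure variation between single fish.

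IGFBPs are secreted proteins that bind the growth factors IGF-I and IGF-II outside the cell, prolong their life and limit or direct their access to the IGF-I receptor. Proteases such as pappalysins and HTRA enzymes cleave them and set the ligand free, and stanniocalcins inhibit the pappalysins. In zebrafish, an igfbp5 gene and a pappalysin act on the calcium-transporting ionocytes of skin and gill, and igfbp1 responds to low oxygen.

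All 11 rows carried the annotations of IGF-I binding and of IGF-II binding, and no other gene in the table carried either term. The deposited orthology entry K10138 was shared by 10 of the 11 rows and by no other gene. It placed those 10 in the p53 signalling and cellular senescence pathways. The same entry was given to rows named IGFBP-1, IGFBP-2, IGFBP-3, IGFBP-5 and IGFBP-6 alike, and whether it fits each type was not tested. Fibronectin binding was annotated for 4 of the 11 rows, which were 2 of the 3 rows named IGFBP-5 and both named IGFBP-3. Among the 10 genes, 8 had only a locus number, so they are named here by locus and by the product in the deposited table. Each annotated type, IGFBP-1, IGFBP-2, IGFBP-3, IGFBP-5 and IGFBP-6, had more than 1 of the 11 rows. Reads of near-identical copies could have been divided between them by the authors' counting, and that division was not tested.

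After transport, 3 of the 8 IGFBP genes tested besides igfbp6 were called lower and 0 higher. Each of the 3 was below 0.6 of its control level. The 3 were an IGFBP-5 gene, its neighbour IGFBP-2-B and an IGFBP-3 gene. Fold changes were tested with edgeR across all genes, and a gene was called at a Benjamini-Hochberg adjusted p under 0.05. One of the 10 genes had too few counts for the test, and besides igfbp6 there were 8 tested genes. Of these 8, 3 were called lower, 0 higher and 5 were not called, and the same 3 were the only ones called by DESeq2 or with an unadjusted p under 0.05. Over all genes, 25% (5200) had an unadjusted p under 0.05, and DESeq2 called 14.7% of the 21985 genes it tested. Over the 20771 genes tested, 3.46% were called lower and 3.23% higher, or 6.69% in either direction. The 3 transport values lay below all 3 control values in 4 of the 8 genes, against 15% (3120) of all genes tested (32.7% without overlap in either direction), and the groups overlapped in the other 4. The median log2 fold change, transport minus control, was -0.42 over the 8 genes and 0.00 over all genes tested. In bulk gill RNA, fewer cells that express a gene and less of its RNA per cell cannot be told apart.

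**Figure D1:**
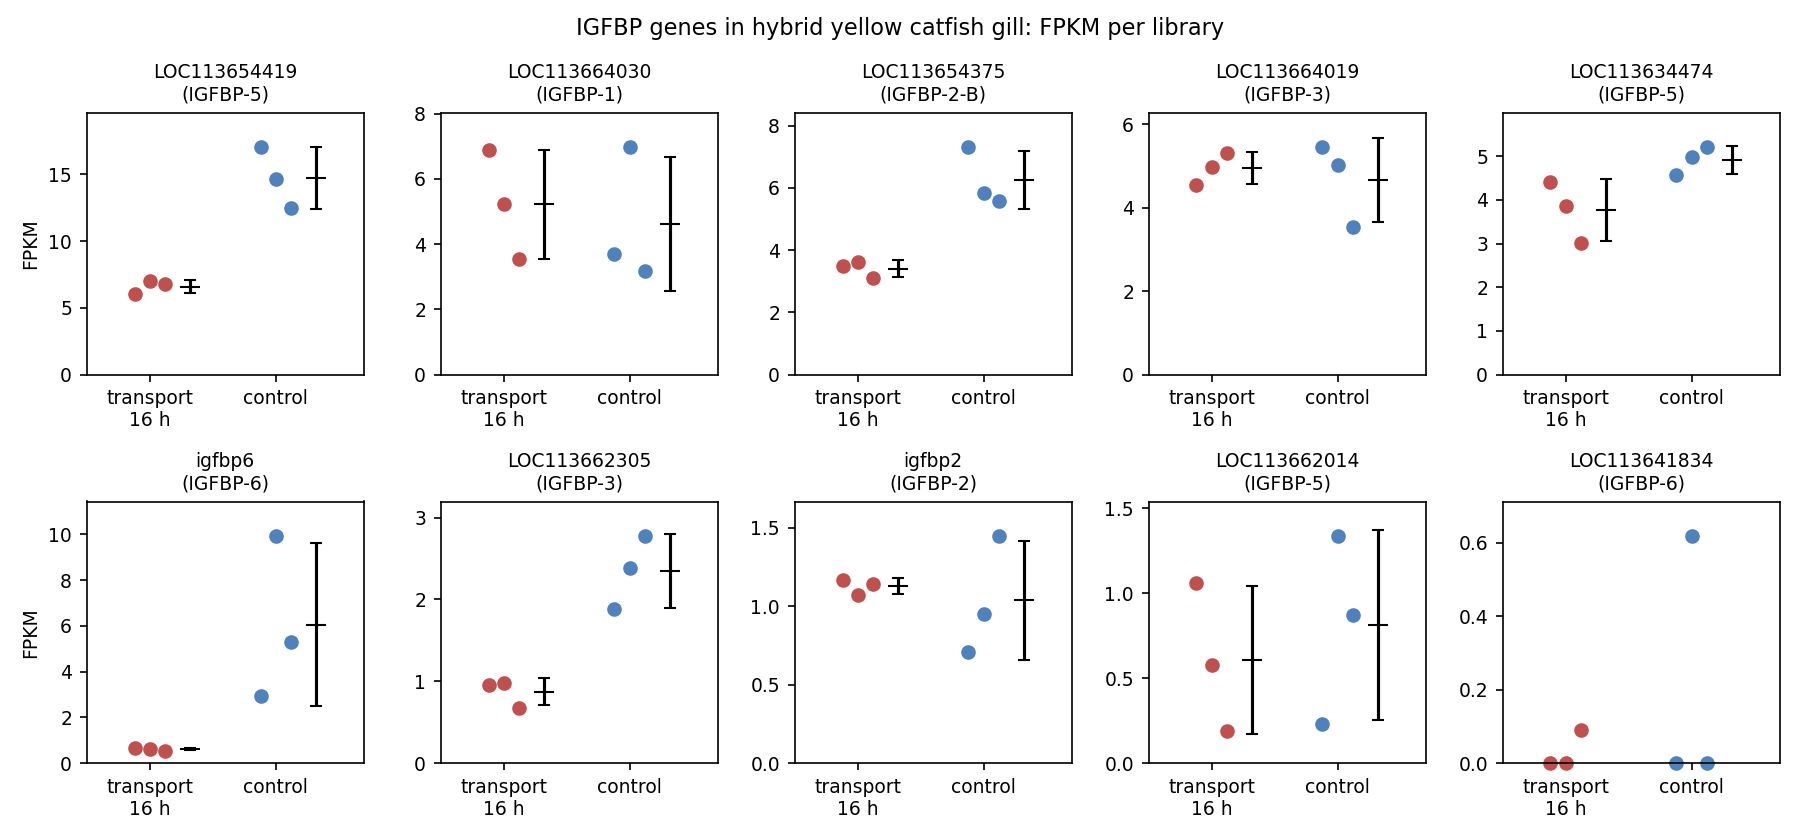
Deposited FPKM of each of the 10 IGFBP genes in the 3 transport and the 3 control libraries (points), with the group mean and SD (bars) for genes that were tested; each panel has its own linear axis from 0. The groups do not overlap for LOC113654419, LOC113654375, LOC113662305, LOC113634474 and igfbp6, each lower after transport.

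The most abundant member was LOC113654419, annotated as IGFBP-5, a binding protein that also attaches to the extracellular matrix. It lies on the plus strand of scaffold NW_020847958.1, from 302852 to 314850. It had 6.02, 6.98 and 6.79 FPKM in transport gills, against 17.04, 14.67 and 12.46 FPKM in control gills. Every transport library was below every control library, and the lowest control value was well above the highest transport value. The group means were 6.60 ± 0.508 FPKM after transport and 14.7 ± 2.29 FPKM in controls (SD, n = 3 each). The log2 fold change was -1.17 (SE 0.14), with an adjusted p of 0.0113 by edgeR. The estimated counts behind these values ranged from 1348 to 4452. Without transport library 2 the adjusted p was 0.0892 and without transport library 3 it was 0.0505, so the call ended in both cases while the log2 fold change was -1.21 and -1.20.

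Its neighbour LOC113654375, annotated as IGFBP-2-B, lies on the minus strand of the same scaffold, from 317505 to 331154. IGFBP-2 is a circulating and tissue binding protein, and in mammals it carries an integrin-binding motif. Its level was 3.5, 3.63 and 3.09 FPKM in transport gills, against 7.31, 5.83 and 5.59 FPKM in control gills. The groups did not overlap, and control library 1 was the highest of the 6. The means were 3.41 ± 0.282 FPKM after transport and 6.24 ± 0.932 FPKM in controls (SD, n = 3 each), with a log2 fold change of -0.89 (SE 0.16) and an adjusted p of 0.0268. This call was lost without any single transport library, at an adjusted p of 0.0691 without library 1, 0.133 without library 2 and 0.109 without library 3, and also without control library 3, at 0.0582.

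LOC113662305, annotated as IGFBP-3, lies on the plus strand of NW_020848087.1, from 601165 to 630927. In mammals IGFBP-3 is the main carrier of IGFs in blood, in a complex with the acid labile subunit. It had 0.96, 0.98 and 0.68 FPKM in transport gills, against 1.88, 2.39 and 2.78 FPKM in control gills. All 3 transport libraries stayed under 1 FPKM and all 3 control libraries lay above it. The means were 0.873 ± 0.168 FPKM after transport and 2.35 ± 0.451 FPKM in controls (SD, n = 3 each). Its log2 fold change of -1.45 (SE 0.25) had an adjusted p of 0.0250. The call was lost without transport library 1, 2 or 3 (adjusted p of 0.0623, 0.123 and 0.0949) and without control library 2 or 3 (0.0533 and 0.0758).

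Most fibroblast markers were lower after transport together with these genes. Of the 10 fibroblast markers tested (genes for type I and III collagen, decorin, periostin and a platelet-derived growth factor receptor), 7 were called lower after transport and 0 higher, with a median log2 fold change of -1.55. Beside this count and those of the other markers below, 3.46% of all genes tested were called lower and 3.23% higher. The 10 summed to 180 to 212 FPKM in transport gills and 728 to 1146 FPKM in control gills. One more row of the list, the collagen alpha-1(I)-like LOC113642631, was not tested and went the other way, with 0, 8.67 and 17.76 FPKM in transport gills, against 0.02, 0.05 and 0 FPKM in control gills. Endothelial markers had 1 of 5 called lower, and their sums were 10.66 to 11.98 FPKM in transport gills and 12.9 to 16.5 FPKM in control gills. Ionocyte markers had 1 of 6 called lower, the ammonia channel gene rhbg, with sums of 719 to 756 FPKM after transport and 876 to 1219 FPKM in controls. Cartilage and bone markers had 1 of 5 called lower, with sums of 40.9 to 55.5 FPKM after transport and 70.8 to 100.9 FPKM in controls. Epithelial markers had 2 of 4 called higher, evpl (log2 fold change of 1.38) and grhl1 (0.48), and 1 lower, tp63 (-0.75), with sums of 1128 to 1170 FPKM after transport and 1092 to 1711 FPKM in controls. Erythrocyte markers, all matched by product name, had 0 of 11 called. They summed to 11753.5, 8496.6 and 5059.9 FPKM in transport gills, against 7117.1, 13948.5 and 8791.4 FPKM in control gills. The part of these cell types in the levels of the IGFBP genes was not tested. Hepatocyte markers, which would show liver RNA, summed to 1.03 to 1.41 FPKM after transport and 0.74 to 6.80 FPKM in controls.

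Among the members that were not called, LOC113634474 came closest. It is a second gene annotated as IGFBP-5, on the plus strand of NW_020848156.1 from 3936021 to 3945641. It had 4.42, 3.87 and 3.02 FPKM in transport gills, against 4.58, 4.98 and 5.21 FPKM in control gills. The groups were separated only by the step between 4.42 and 4.58 FPKM. Its means were 3.77 ± 0.705 FPKM after transport and 4.92 ± 0.319 FPKM in controls (SD, n = 3 each), and its log2 fold change of -0.40 (SE 0.21) had an adjusted p of 0.280.

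The other gene annotated as IGFBP-3, LOC113664019, lies on the plus strand of NW_020848124.1 from 993959 to 1008988. Its level was 4.54, 4.98 and 5.32 FPKM in transport gills, against 5.45, 5.02 and 3.53 FPKM in control gills. The groups overlapped, with a control library both highest and lowest. The means were 4.95 ± 0.391 FPKM after transport and 4.67 ± 1.01 FPKM in controls (SD, n = 3 each). The log2 fold change was 0.07 (adjusted p of 0.861), and 2 SE on either side spanned -0.30 to 0.43.

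IGFBP-1, which in mammals and zebrafish is induced by fasting and low oxygen and restrains growth, was represented by LOC113664030 on the minus strand of the same scaffold, from 1010933 to 1013934. It had 6.89, 5.23 and 3.54 FPKM in transport gills, against 3.7, 6.97 and 3.17 FPKM in control gills. Its libraries were spread over nearly the same range in both groups. Transport library 1 and control library 2 were the highest of their groups, as they were for the summed erythrocyte markers. The lowest control was library 3 for this gene and library 1 for those markers. The part of blood RNA in this spread was not tested. The means of 5.22 ± 1.68 FPKM after transport and 4.61 ± 2.06 FPKM in controls (SD, n = 3 each) differed by less than that spread. The log2 fold change was 0.16 with an adjusted p of 0.835, and the interval of 2 SE on either side, -0.57 to 0.88, does not exclude a change in either direction.

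The gene named igfbp2, on the minus strand of NW_020848156.1 from 3944865 to 3974469, was a low-level second copy of IGFBP-2. It had 1.17, 1.07 and 1.14 FPKM in transport gills, against 0.71, 0.95 and 1.45 FPKM in control gills. All transport values lay inside the control range. The means were 1.13 ± 0.0513 FPKM after transport and 1.04 ± 0.378 FPKM in controls (SD, n = 3 each), on 63 to 113 estimated counts. The log2 fold change was 0.10, with an adjusted p of 0.903 and 2 SE on either side from -0.67 to 0.87.

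LOC113662014, annotated as IGFBP-5, lies on the plus strand of NW_020848081.1 from 268100 to 272928. It had 1.06, 0.58 and 0.19 FPKM in transport gills, against 0.23, 1.34 and 0.87 FPKM in control gills. Both groups ran from near 0.2 to above 1 FPKM. The means were 0.61 ± 0.436 FPKM after transport and 0.813 ± 0.557 FPKM in controls (SD, n = 3 each). With 16 to 131 estimated counts, the log2 fold change of -0.43 had an SE of 0.82 and an adjusted p of 0.793.

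**Figure D2:**
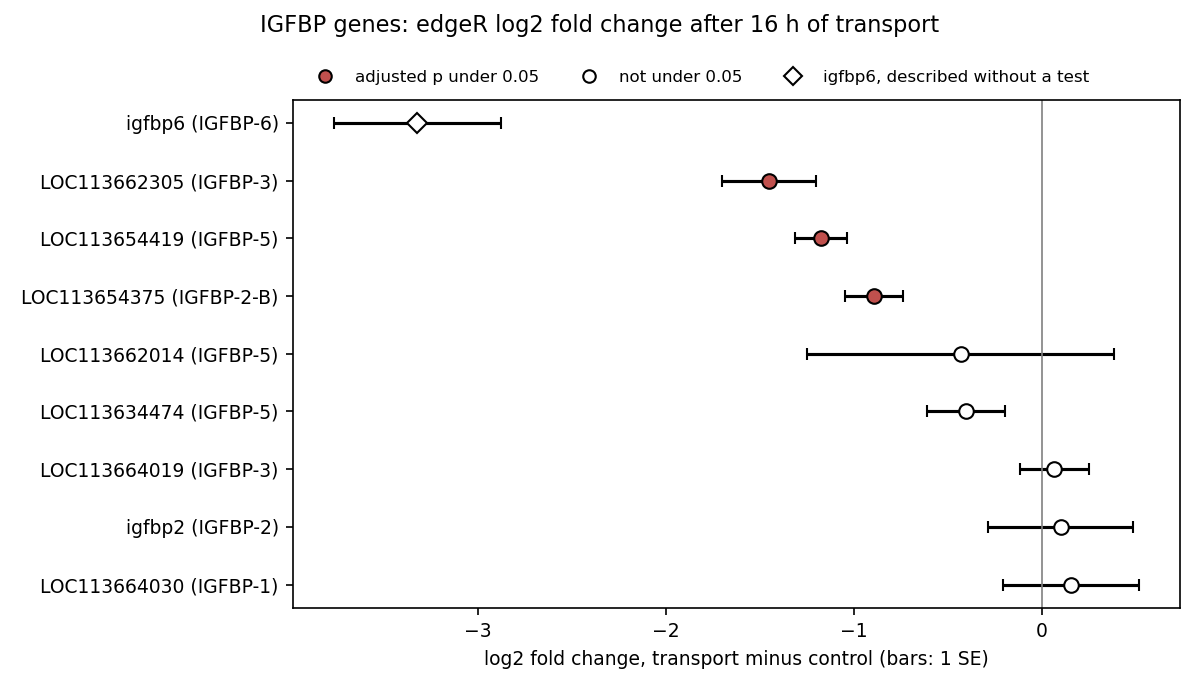
Log2 fold change by edgeR, transport minus control, for each tested IGFBP gene, with bars of 1 SE. The genes LOC113654419, LOC113654375 and LOC113662305 were called lower, igfbp6 at -3.32 is shown without a test, and the other 5 were not called.

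The member with the lowest level after transport relative to control was igfbp6, the value it was chosen for. IGFBP-6 differs from the other family members in its preference for IGF-II over IGF-I. The gene lies on the minus strand of NW_020848400.1 from 1229320 to 1236313. It had 0.66, 0.62 and 0.55 FPKM in transport gills, against 2.94, 9.94 and 5.28 FPKM in control gills. The 3 transport libraries lay close together and below all controls, whereas the highest control was 3.38 times the lowest. The transport mean of 0.61 ± 0.0557 FPKM was 10.1% of the control mean of 6.05 ± 3.56 FPKM (SD, n = 3 each). The fitted log2 fold change was -3.32. It ranged from -3.67 to -2.01 over the other settings and left-out libraries, all fitted to the values for which the gene was chosen. The end at -2.01 came from limma on log2(FPKM + 1), which adds 1 to transport levels of 0.55 to 0.66 FPKM. With 1 library left out the range was -3.67 to -2.76.

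The position of igfbp6 limits how its reads can be assigned. It overlaps LOC113641834, the other row annotated as IGFBP-6, by 1746 bases on the opposite strand. LOC113641834 occupies the plus strand from 1227839 to 1231065. It had 0, 0 and 0.09 FPKM in transport gills, against 0, 0.62 and 0 FPKM in control gills, and its estimated counts of 0, 0 and 4 and of 0, 33 and 0 were too few for the test. At its other end igfbp6 overlaps spryd3 on the plus strand by 1179 bases. The gene spryd3 had 6.02, 5.79 and 5.13 FPKM in transport gills, against 7.66, 7.55 and 7.76 FPKM in control gills, with a log2 fold change of -0.46 and an adjusted p just under 0.05. The labels do not say that the libraries kept strand, so reads in these overlaps cannot be told apart.

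Ratios between members of the same annotated type were without overlap between the groups in 3 of 5 pairs and overlapped in 2. Each of the 3 included a gene called lower after transport, and the IGFBP-5 pairs shared genes. The share of such ratios over all pairs of genes was not computed. The comparison of copies within a library was made on log2 ratios of FPKM with 0.1 added, for the 5 pairs of tested copies, by a two-sided exact permutation test that with 3 libraries a group cannot go below 0.1. The IGFBP-3 pair, LOC113664019 over LOC113662305, had a log2 ratio of 2.39 ± 0.359 after transport and 0.95 ± 0.581 in controls (SD, n = 3 each), without overlap (exact p of 0.1, adjusted over the 5 pairs 0.167). The IGFBP-2 pair, LOC113654375 over igfbp2, had 1.51 ± 0.155 after transport and 2.52 ± 0.659 in controls, also without overlap and with the same p.

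The more abundant IGFBP-5 genes, LOC113654419 over LOC113634474, had a log2 ratio of 0.80 ± 0.354 after transport and 1.55 ± 0.316 in controls, again without overlap and at an exact permutation p of 0.1. These 3 ratios therefore reached the smallest p the design allows and did not pass the threshold. Both ratios to LOC113662014 overlapped between the groups, with exact p-values of 0.5 for LOC113654419 and 1 for LOC113634474.

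Most members lie beside a member of another type that faces them on the scaffold, an arrangement also known in other vertebrates for igfbp2 with igfbp5 and for igfbp1 with igfbp3. LOC113654419 and LOC113654375 end 2654 bases apart, and LOC113664019 and LOC113664030 end 1944 bases apart. The ends of LOC113634474 and igfbp2 overlap by 777 bases, and those of LOC113662305 and LOC113662304 by 754 bases. LOC113662304, annotated as IGFBP-1 and left out for its level, had 0, 0.14 and 0 FPKM in transport gills, against 0, 0 and 0 FPKM in control gills.

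Both genes were called lower in the pair of LOC113654419 and LOC113654375. The genes outside that pair were not called, with a log2 fold change of 0.16 (adjusted p of 0.429) for tns1, which encodes the adhesion protein tensin-1, and of -0.13 (adjusted p of 0.776) for LOC113654371, annotated as a receptor activity-modifying protein. The ratio of LOC113654419 to LOC113654375 in FPKM was 1.72, 1.92 and 2.20 in transport gills, against 2.33, 2.52 and 2.23 in control gills. Although both fell, the ratio in every transport library was below that in every control library, only by the step between 2.20 and 2.23. This ratio was not tested, and the share of such separations over all pairs of genes was not computed. Neither gene was called in the pairs of LOC113634474 with igfbp2 and of LOC113664019 with LOC113664030. Next to LOC113662305 on the other side, tns3 had a log2 fold change of -0.18 and an adjusted p of 0.730.

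**Figure D3:**
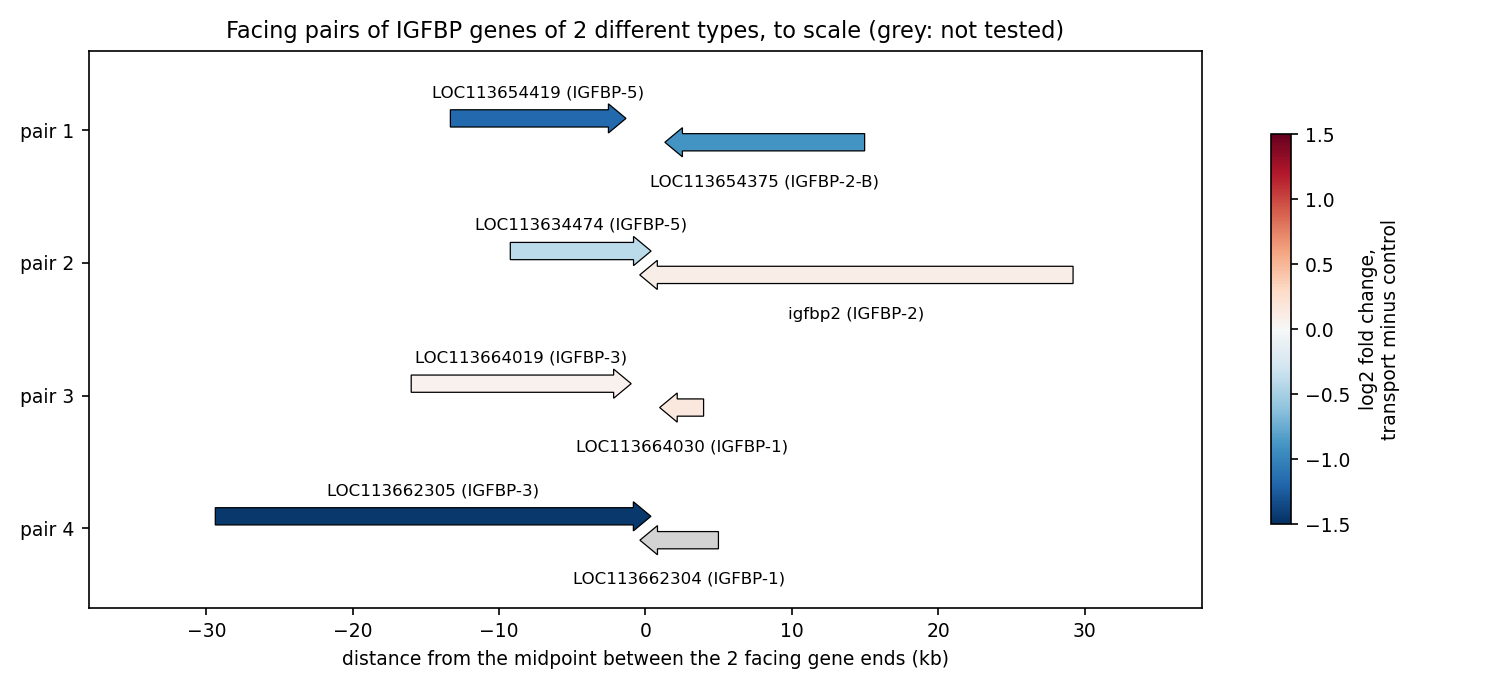
The 4 facing pairs of IGFBP genes of different annotated types, drawn to scale as distance in kb from the midpoint between their facing ends, with arrows for strand and colour for the log2 fold change, transport minus control (grey for genes that were not tested). Only the pair of LOC113654419 and LOC113654375 has both genes called lower, at -1.17 and -0.89.

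LOC113662014 stood in no such pair. Some of its neighbours carried the same annotations as neighbours of igfbp6. A gene for LIM domain and actin-binding protein 1 lies 23.0 kb from LOC113662014 and 40.5 kb from igfbp6, and a gene for the gamma type of phosphatidylinositol 5-phosphate 4-kinase lies 2.47 kb and 1.46 kb away. A gene annotated as the same G-protein coupled receptor type follows at 16.4 kb from LOC113662014 and at 14.2 kb from igfbp6. Genes of the Hox-C cluster, 4 and 10 in number, lie 157.9 to 198.9 kb from LOC113662014 and 186.6 to 279.3 kb from igfbp6. The deposited table names LOC113662014 as IGFBP-5, and that name is kept here. The scaffold of LOC113654419 and LOC113654375 instead holds 8 genes annotated as Hox-D.

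Added over the 10 genes, the FPKM was 29.2, 27.9 and 24.4 in transport gills, against 43.8, 52.7 and 40.3 in control gills. All 3 transport sums were below the control sums, with means of 27.2 ± 2.49 FPKM after transport and 45.6 ± 6.38 FPKM in controls (SD, n = 3 each), a ratio of 0.596. No test is given for this sum, since the genes were chosen by level and igfbp6 by its change. Without igfbp6 the sum was 26.6 ± 2.44 FPKM after transport and 39.6 ± 4.02 FPKM in controls.

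By annotated type, IGFBP-5 made up the largest part of that sum in both groups. Its 3 genes summed to 10.98 ± 0.847 FPKM after transport and 20.5 ± 1.72 FPKM in controls. The IGFBP-2 genes summed to 4.53 ± 0.263 FPKM after transport and 7.28 ± 0.654 FPKM in controls, and the IGFBP-3 genes to 5.82 ± 0.278 FPKM after transport and 7.02 ± 0.613 FPKM in controls. IGFBP-1 had 5.22 ± 1.68 FPKM after transport and 4.61 ± 2.06 FPKM in controls, with overlap between the groups. It was 18.9% of the sum after transport and 9.84% in controls, where the sum includes igfbp6. The gene igfbp6 was 2.24% after transport and 12.9% in controls. LOC113654419 accounted for 24.5% after transport and 32.5% in controls.

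The order of levels differed between the groups. In transport gills LOC113654419 came first and overlapped LOC113664030, which overlapped LOC113664019. LOC113634474 and LOC113654375 followed. They overlapped each other and also LOC113664030, whose lowest value was 3.54 FPKM. The other 5 genes lay below them without overlap. In control gills LOC113654419 stood above every other member without overlap, followed by LOC113654375, igfbp6, LOC113634474, LOC113664019 and LOC113664030, of which each overlapped the next, and the other 4 genes lay below without overlap. Variation between libraries was lower after transport in 6 of the 9 tested members by the coefficient of variation, against 64.7% of 20728 genes. The 6 include igfbp6, which was chosen for its change (9.13% after transport and 58.9% in controls). LOC113662305 was practically equal at 19.2% in both groups and was not counted as lower.

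**Figure D4:**
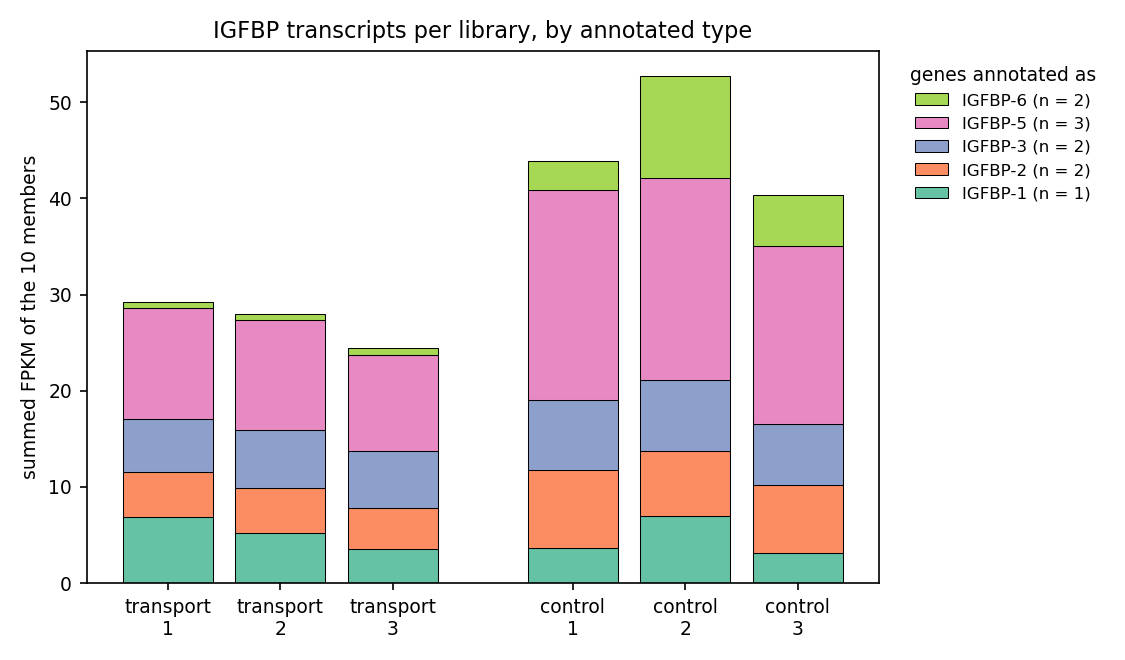
Summed FPKM of the 10 IGFBP genes in each library, stacked by annotated type from a linear axis at 0, with the transport libraries on the left. The 3 transport libraries reach 24.4 to 29.2 and the 3 control libraries 40.3 to 52.7, and IGFBP-5 is the largest part in each library.

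A much more abundant relative, igfbp7, fell outside the choice because its deposited product name opens with a note of low sequence quality. IGFBP-7 binds IGFs weakly and also binds insulin. Its level was 338, 301 and 281 FPKM in transport gills, against 179, 339 and 473 FPKM in control gills. The control libraries lay on both sides of the transport values, with means of 307 ± 28.6 FPKM after transport and 330 ± 147 FPKM in controls (SD, n = 3 each), a log2 fold change of -0.13 and an adjusted p of 0.845. Because it exceeds the 10 genes together, the sum with igfbp7 added was 334 ± 30.8 FPKM after transport and 376 ± 146 FPKM in controls. LOC113662921, annotated as a protein with a single IGF-binding domain, had 97.0, 105.59 and 96.61 FPKM in transport gills, against 36.04, 111.23 and 130.95 FPKM in control gills. Control library 1 was the lowest of the 6 for both genes. Skeletal muscle markers summed to 198, 786 and 1319 FPKM in transport gills, against 1487, 281 and 292 FPKM in control gills, so control library 1 was the highest of the 6. Of 12 muscle markers tested 0 were called by edgeR or by DESeq2 and 0 had an unadjusted p under 0.05, and 6 alpha-actin rows were at 0 in all libraries. The part of muscle RNA in the values of both genes was not tested.

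The ligands themselves were lower in every transport library than in every control library, and 0 of 3 were called by edgeR. Both genes for IGF-II had an unadjusted p under 0.05 and were called by DESeq2. IGF-II is made locally in many fish tissues, and its genes had only locus numbers and were matched by product name after values had been seen. LOC113660163 had 8.84, 7.73 and 6.73 FPKM in transport gills, against 14.44, 9.86 and 11.79 FPKM in control gills, with a log2 fold change of -0.65 (SE 0.18) and an adjusted p of 0.0805. LOC113636667 had 5.94, 7.17 and 6.46 FPKM in transport gills, against 10.46, 9.56 and 8.47 FPKM in control gills, with a log2 fold change of -0.56 (SE 0.15) and an adjusted p of 0.0695. Neither gene overlapped between the groups, and neither passed the threshold. Of all genes, 15% lay lower without overlap, 25% had an unadjusted p under 0.05 and 14.7% were called by DESeq2. The gene igf1 was near 0, with 0, 0 and 0.08 FPKM in transport gills, against 0.23, 0.16 and 0.16 FPKM in control gills, and an adjusted p of 0.317.

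Per unit of IGF-II FPKM, the summed FPKM of the 10 genes was 1.98, 1.88 and 1.85 in transport gills, against 1.76, 2.71 and 1.99 in control gills. The groups overlapped in this ratio.

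Of the 5 tested receptor genes, 0 were called by edgeR, while igf2r alone was called by DESeq2 and alone had an unadjusted p under 0.05. The gene igf2r, whose product takes up IGF-II for degradation in mammals, averaged 6.08 ± 0.928 FPKM after transport and 8.41 ± 0.185 FPKM in controls (log2 fold change of -0.49, adjusted p of 0.0656). The gene igf1r, for the signalling receptor, averaged 1.36 ± 0.387 FPKM after transport and 1.36 ± 0.250 FPKM in controls (log2 fold change of -0.02, adjusted p of 0.969). A second IGF-I receptor gene, LOC113653192, had an adjusted p of 0.669. The insulin receptor-like genes LOC113647079 and LOC113650213 had adjusted p-values of 0.888 and 0.781.

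In all, 7 lists of genes of the IGF axis were examined around the binding proteins, chosen with earlier results of these data known. By symbol, 54 of their genes were in the table and 52 could be tested, of which 4 were called higher and 5 lower, with a median log2 fold change of -0.18. With genes matched by product name added, an addition made after seeing the data, 79 could be tested, of which 4 were called higher and 6 lower, with a median of -0.17. All genes tested had 3.23% called higher and 3.46% lower.

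Among the proteases, carriers and inhibitors of IGFBPs, 1 of 13 tested genes was called by edgeR. It was htra3, a secreted serine protease with an IGFBP-like domain of its own, with 0.81, 1.24 and 0.72 FPKM in transport gills, against 3.26, 4.54 and 3.7 FPKM in control gills. All transport values were below all control values, and the log2 fold change was -2.06 (SE 0.29, adjusted p of 0.0161). Its relative htra1 is known to cleave IGFBP-5 in mammals. It averaged 20.5 FPKM after transport and 29.7 FPKM in controls. It was lower without overlap but not called by edgeR (log2 fold change of -0.56, unadjusted p of 0.0141, adjusted p of 0.101). DESeq2 called htra3, htra1 and adamts1 among the genes matched by symbol. Of the 13 genes, 10 had a negative log2 fold change and 3 a positive one. Of all genes, 15% lay lower without overlap, 25% had an unadjusted p under 0.05 and 14.7% were called by DESeq2. Of 6 tested pappalysin and stanniocalcin genes, 0 were called by edgeR or by DESeq2 and 0 had an unadjusted p under 0.05. The adjusted p was 0.657 for pappa2 and 0.267 for stc1.

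Of 12 tested proteins that share the IGFBP domain with the family, 1 was called higher and 1 lower, against 3.23% and 3.46% of all genes tested. Among genes matched by symbol, DESeq2 called esm1 and ccn2, against 14.7% of all genes. An unadjusted p under 0.05 by edgeR was also found for ccn2 and the CYR61-like LOC113655092, both lower, against 25% of all genes. The gene esm1, which encodes the proteoglycan endocan of endothelial cells, had 9.04, 11.77 and 12.39 FPKM in transport gills, against 3.89, 4.34 and 3.81 FPKM in control gills. All transport libraries lay above the controls, with a log2 fold change of 1.44 (SE 0.18) and an adjusted p of 0.0127. LOC113644744, annotated as WISP1-like, averaged 0.79 ± 0.149 FPKM after transport and 2.41 ± 0.350 FPKM in controls (log2 fold change of -1.62, adjusted p of 0.0261). WISP1 is a matrix-associated CCN protein that responds to Wnt signals.

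In the growth hormone list 0 of 6 tested genes were called by edgeR, 3 had an unadjusted p under 0.05, and DESeq2 called 2, cish and the prolactin receptor gene prlr, against 25% and 14.7% of all genes. The one with the smallest p was cish, a feedback inhibitor of cytokine receptors, with 14.8 ± 1.78 FPKM after transport and 25.0 ± 5.07 FPKM in controls, a log2 fold change of -0.78 and an adjusted p of 0.0509. It passed the threshold in 5 of 13 alternative settings.

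In insulin and IGF signal transduction, 2 genes of 26 were called higher and 2 lower, against 3.23% and 3.46% of all genes tested. Among genes matched by symbol, DESeq2 called these and foxo3, against 14.7% of all genes. An unadjusted p under 0.05 by edgeR was also found for foxo3, rheb, mtor, tsc2, rps6kb1, LOC113648782 and LOC113654717, of which only rps6kb1 was higher. Of all genes, 25% had such a p. The regulatory subunit gene of phosphatidylinositol 3-kinase, pik3r1, had 26.1, 26.49 and 24.64 FPKM in transport gills, against 42.43, 44.43 and 40.23 FPKM in control gills (log2 fold change of -0.74, adjusted p of 0.0107). The groups did not overlap and each varied little. The phosphatase gene pten, which opposes that kinase, averaged 10.4 ± 1.04 FPKM after transport and 6.87 ± 0.223 FPKM in controls (log2 fold change of 0.58, adjusted p of 0.0322). The receptor adaptor gene grb10 averaged 5.25 ± 0.200 FPKM after transport and 3.47 ± 0.353 FPKM in controls (0.58 on the log2 scale, adjusted p of 0.0430). The transcription factor gene foxo1 averaged 2.51 ± 0.205 FPKM after transport and 4.61 ± 1.04 FPKM in controls (-0.90 on the log2 scale, adjusted p of 0.0458).

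Among regulators of hypoxia and stress responses, 1 of 14 tested genes was called higher and 2 lower, against 3.23% and 3.46% of all genes tested. DESeq2 called these and ddit4, against 14.7% of all genes. The hypoxia-inducible factor gene epas1 averaged 105 ± 4.63 FPKM after transport and 65.8 ± 7.47 FPKM in controls, with a log2 fold change of 0.66 and an adjusted p of 0.0220. The oxygen sensor gene egln3 averaged 2.39 ± 0.156 FPKM after transport and 4.84 ± 1.41 FPKM in controls (-1.04, adjusted p of 0.0468), and the mineralocorticoid receptor gene nr3c2 averaged 1.09 ± 0.0961 FPKM after transport and 2.33 ± 0.505 FPKM in controls (-1.10, adjusted p of 0.0378). Both lower genes were below every control library in every transport library.

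These calls also depended on single libraries. Of the 10 called genes in the lists, 0 were still called by edgeR without transport library 2 and 0 without transport library 3, with adjusted p-values of 0.0776 to 0.184 and of 0.0519 to 0.162. Without transport library 1, esm1 and pik3r1 were still called. Without control library 3 these were htra3, esm1, pik3r1 and epas1, and grb10 joined them without control library 2. Without control library 1, 6 of the 10 were still called. No sign changed among the 10. The loss of calls was general, since over all genes 1389 calls became 3 without transport library 2 and 162 without transport library 3.

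**Figure D5:**
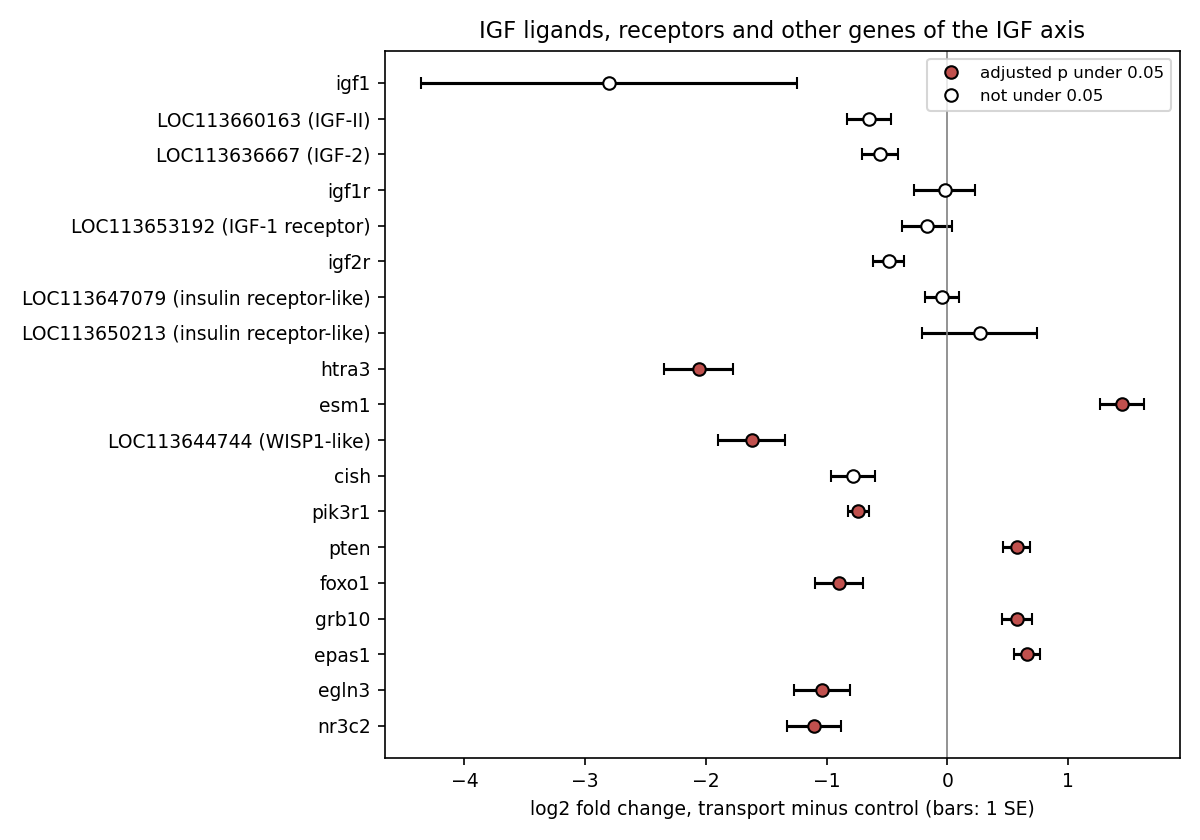
Log2 fold change by edgeR, transport minus control, with bars of 1 SE, for IGF ligands, receptors and the named genes of the other IGF axis lists (filled points, adjusted p under 0.05). The ligands and receptors are all unfilled, esm1 is the highest at 1.44 and htra3 the lowest of the called genes at -2.06.

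The genes whose profile over the 6 libraries was most like that of a member were sought among 7165 genes with a symbol and a mean of at least 2 FPKM, by the mean absolute difference of log2(FPKM + 1) after centring each gene on its own mean. For igfbp6 they were uap1, clec11a and phex, at 0.16, 0.20 and 0.26. Their log2 fold changes by edgeR were -2.09, -1.92 and -2.09, against -3.32 for igfbp6. On log2(FPKM + 1), the scale used here, igfbp6 had -2.01, since adding 1 narrows changes of a gene at so low a level. The enzyme gene uap1, which makes a sugar donor used for glycans, had 43.07, 34.82 and 30.77 FPKM in transport gills, against 100.89, 246.04 and 109.97 FPKM in control gills. As in igfbp6, control library 2 was the highest. For LOC113654419 they were pou2af1, nr4a3 and dennd4b, at 0.09, 0.10 and 0.12. For LOC113654375 they were sh3kbp1, p3h3 and msh6, at 0.06 each. For LOC113664030 the nearest was f2r, at 0.07, with 26.63, 22.15 and 18.67 FPKM in transport gills, against 16.41, 28.96 and 15.17 FPKM in control gills. These likenesses share the same 6 libraries and describe them only.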

How the data were processed

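RNA of 3 transport and 3 control gill libraries was isolated with TRIzol and prepared by standard Illumina protocols, per the labels, which give no strand. HISAT and StringTie are named in the submitters' processing notes, with no version. The build was not given in the sources used here. In 1 table the authors deposited an estimated count and an FPKM per gene and library. The estimated counts are whole numbers, but the value 4 was far more frequent than 3 or 5 (427 genes against 113 and 81 in control library 1), so 1 fragment is worth about 4 units. Totals were 42962760 to 58495713 per library.

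From the deposited counts, edgeR 4.0.16 (R 4.3.3) tested transport minus control with filterByExpr (minimum count 10, minimum total 15), TMM scaling, a two-sided quasi-likelihood test with no covariate and Benjamini-Hochberg adjustment over 20771 genes at 0.05. SEs are the log2 fold change divided by the root of the F statistic. Levels are the authors' FPKM, as mean ± SD. On simulated data for 20179 genes, the fit recovered 25% of 2-fold and 86% of 4-fold changes, and 5.93% of its calls were false. The 200 genes changed there all lay above a minimum mean FPKM. The recovery rates therefore do not cover genes of lower level such as LOC113662014. Fewer genes were changed there than the 1389 called in the real data, so the rates may differ in the real fit. Alternatives used DESeq2 1.42.0, limma 3.58.1, other scaling and filters, and left out each library.

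The members and lists were chosen with earlier results of these data known. Named genes were all members, every tested ligand and receptor, up to 4 called genes of each other list with the smallest p (or the gene with the smallest p where none was called), and the 3 most similar genes for igfbp6 and for the 3 most abundant members. Markers and ligands with only a locus number were matched by product name after values had been seen.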

Additional observations from a re-analysis of the deposited data

How the results depend on the processing

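All 3 calls among the IGFBP genes were kept with DESeq2, RLE scaling, no filter on low counts, counts divided by 4, limma on log2(FPKM + 1) and without control library 1. Limma on log2(FPKM + 0.1) kept 2, LOC113654419 and LOC113662305, the replicate block kept 0, and leaving out 1 library gave 0 to 3. Over all genes, 1389 calls became 3238 with DESeq2, 559 with limma on log2(FPKM + 0.1), 14 with the replicate block and 3 to 1498 with 1 library left out. The 9 calls matched by symbol in the IGF axis lists became 17 with DESeq2, 3 with limma on log2(FPKM + 0.1), 0 with the replicate block and 0 to 6 with 1 library left out. Deviations of same-numbered transport and control libraries had correlations of -0.07, -0.03 and -0.04. These show no sign of pairing by number, but with 3 libraries a group they cannot exclude it. The cause of these shifts was not tested.

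The log2 ratio of the summed FPKM, -0.74, was -0.094 with igfbp7 added, -0.57 without igfbp6 and -0.83 to -0.63 with 1 library left out. With 1 library left out, 7 log2 fold changes that were not called spanned 0, with ranges of -0.12 to 0.42 for igfbp2, -0.094 to 0.17 for LOC113664019, -0.091 to 0.58 for LOC113664030, -1.08 to 0.13 for LOC113662014, -0.16 to 0.19 for igf1r, -0.15 to 0.11 for LOC113647079 and -0.076 to 0.59 for LOC113650213. Counts were fewest for igfbp2, LOC113662014 and LOC113641834, so their counting error was largest, and its part in their spread was not tested. With 3 libraries a group, precision is limited throughout.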

Other observations

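The genes with a similar name that were left out bind mRNA rather than the growth factors. Of these, igf2bp1 had 3.86, 3.96 and 3.66 FPKM in transport gills, against 1.97, 2.85 and 2.35 FPKM in control gills. All transport libraries lay above the controls, the opposite direction to the called IGFBP genes, with a log2 fold change of 0.66 (SE 0.16) that was not called at an adjusted p of 0.0560 by edgeR. Of all genes tested, 32.7% were without overlap in either direction. The other mRNA-binding rows overlapped between the groups and were not called, with log2 fold changes of 0.46 for LOC113649625, 0.15 for igf2bp2 and -0.38 for LOC113636024. The gene igfals, for the acid labile subunit that joins IGFBP-3 in the mammalian blood complex, had 0.11, 0.13 and 0.11 FPKM in transport gills, against 0, 0.07 and 0 FPKM in control gills, on at most 15 estimated counts.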
